A study of Rattus norvegicus with 56 samples.

Results

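Protein kinase C (PKC) isoforms were followed in the dorsal striatum of 56 rats. Every probe set whose symbol in the array annotation is exactly Prkca, Prkcb, Prkcd, Prkce, Prkch or Prkcz was taken, which gave 9 probe sets for 6 genes out of 31042 probe sets that are not controls. Prkcb has 3 probe sets, Prkch has 2 and the other genes have 1 each. All 9 exceeded the low-signal filter, a mean log2 signal above 4.99, and are among the 18625 probe sets tested. The Prkca probe set 1372176_at (mean 5.08) and the Prkch probe set 1369830_at (mean 5.17) lie close to that filter.

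The animals were male Crl:OFA (Sprague Dawley) rats, with 1 array per rat and 8 groups of 7 rats. Lesioned rats had lost nigral neurons on both sides after an adeno-associated virus (AAV) carried alpha-synuclein there, and sham rats received the same vector with green fluorescent protein (GFP) in place of it. From 5 weeks after surgery, rats of each kind received daily L-dopa at 50 mg/kg with benserazide, or daily saline, and this lasted 3 weeks. Place conditioning followed, either with pramipexole, a D2/D3 dopamine agonist, at 2 mg/kg or with saline in every session. All groups therefore share viral surgery, daily injections, conditioning and a drug-free test, and the striatum was collected at 24 or 48 hours from the final conditioning injection. The groups are lesioned L-dopa pramipexole, lesioned L-dopa saline, lesioned saline pramipexole, lesioned saline saline, sham L-dopa pramipexole, sham L-dopa saline, sham saline pramipexole and sham saline saline, where the second word is the chronic treatment and the third the conditioning. The labels give neither the promoter of the vector nor the extent of nigral loss in each rat, and the lesion is in the midbrain while the RNA is from the striatum.

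PKC isoforms are serine/threonine kinases downstream of receptors that couple to Gq proteins. Those receptors activate phospholipase C, which releases diacylglycerol and inositol trisphosphate. The conventional isoforms, here Prkca (PKC alpha) and Prkcb (PKC beta), need calcium and diacylglycerol. Prkcd (delta), Prkce (epsilon) and Prkch (eta) need diacylglycerol but not calcium, and the atypical isoform Prkcz (zeta) needs neither. In the striatum these kinases phosphorylate receptors, ion channels and cytoskeletal proteins of the spiny projection neurons that receive dopamine. The signals describe messenger RNA, not kinase amount or activity.

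The array values are log2 signals that the authors deposited, and a difference of 1 is a doubling of the signal. Array medians lay between 5.62 and 5.82, and correlations between arrays lay between 0.96 and 0.987. Markers of spiny neurons were measured in both, with Penk (enkephalin) averaging 12.26 in lesioned and 12.14 in sham rats and Drd1 (the D1 dopamine receptor) averaging 10.80 in lesioned and 10.79 in sham rats. The number of arrays limits the precision. Differences are given ± SE from a limma fit to the 8 group means, and a call means a p below 0.05 after Benjamini-Hochberg adjustment over the tested probe sets of that comparison. The 19 comparisons comprise 3 of 28 against 28 rats, 12 of 7 against 7 rats and 4 interactions.

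Before the results, 1 feature of the arrays has to be stated. The titles number the rats 1 to 56, and 15 of the 18625 tested probe sets, 1 of them a Prkcb probe set, have no overlap between rats 1 to 37 and rats 38 to 56. This division was found from the values and is not in the labels, so it is given as a description. The 37 rats of lower number are all 28 lesioned rats, the 7 sham L-dopa pramipexole rats and 2 sham L-dopa saline rats. The 19 rats of higher number are the other 5 sham L-dopa saline rats and the 14 sham saline rats. Only the sham L-dopa saline group has rats on both sides. With saline treatment, the number range and the lesion cannot be told apart. Over all rats, and with L-dopa and saline conditioning, they coincide in part. With L-dopa and pramipexole, lesioned and sham rats are all numbered 1 to 37. In sham rats conditioned with pramipexole, the number range and L-dopa cannot be told apart.

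Of the PKC isoforms, Prkcb alone had a probe set that was called. Its probe set 1397189_at was called in 6 of the 19 comparisons, and the other 8 probe sets in 0 of 19. Of all 18625 tested probe sets, between 0.166% and 5.07% were called in those 6. At most 8 were called in any of the other 13, so 0 PKC calls there say little. In each of those 6 comparisons the sides hold different numbers of rats numbered above 37, for example 0 of 28 lesioned and 19 of 28 sham rats, or 5 of 28 L-dopa and 14 of 28 saline rats. The other Prkcb probe sets, 1370585_a_at and 1368240_a_at, were called in none, so the symbol Prkcb covers probe sets that gave different answers.

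The conventional isoforms are described first. Probe set 1397189_at of Prkcb had a lowest, median and highest log2 signal of 6.94, 7.13 and 7.22 in lesioned L-dopa pramipexole rats, and of 6.81, 6.93 and 7.46 in sham L-dopa pramipexole rats. In lesioned L-dopa saline rats the values were 7.03, 7.15 and 7.30, against 6.18, 6.36 and 7.09 in sham L-dopa saline rats. In lesioned saline pramipexole rats they were 6.69, 7.14 and 7.42, against 5.95, 6.30 and 6.63 in sham saline pramipexole rats. The sham L-dopa pramipexole rats lay at the level of the lesioned rats, and both sham groups treated with saline lay wholly below their lesioned counterparts.

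In lesioned saline saline rats the lowest, median and highest were 6.94, 7.10 and 7.20, against 6.01, 6.36 and 6.53 in sham saline saline rats, with no overlap. From the highest group mean to the lowest, the order was lesioned L-dopa saline (7.16), lesioned saline saline (7.09), lesioned L-dopa pramipexole (7.09), lesioned saline pramipexole (7.06), sham L-dopa pramipexole (7.02), sham L-dopa saline (6.51), sham saline saline (6.32) and sham saline pramipexole (6.28). The SDs within groups lay between 0.09 and 0.37. Neighbours in this order differ by less than the larger of their SDs, except sham L-dopa pramipexole and sham L-dopa saline, whose means lie 0.50 ± 0.12 apart, a difference that was not called (adjusted p = 0.0905).

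Over all rats, Prkcb 1397189_at averaged 7.10 in lesioned rats and 6.53 in sham rats. The difference was 0.57 ± 0.06, a 1.49-fold higher signal (adjusted p = 4.48e-10). This probe set was chosen with its step between rats 37 and 38 known, and the 19 rats beyond the step are all sham. The p-value therefore does not test the lesion apart from the step. In this comparison 5.07% of all tested probe sets were called, with 2.22% higher and 2.85% lower in lesioned rats, against 1 of the 9 PKC probe sets.

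The same probe set was called in 3 of the 4 comparisons of lesioned with sham rats at matched treatment and conditioning. With saline treatment and pramipexole the difference was 0.79 ± 0.12 (adjusted p = 1.91e-05, with 0.789% of all tested probe sets called). With saline treatment and saline conditioning it was 0.77 ± 0.12 (adjusted p = 2.99e-05, with 1.07% called). In both, all 7 lesioned rats lay above all 7 sham rats, and the groups lie in different number ranges.

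With L-dopa and saline conditioning the difference was 0.65 ± 0.12 (adjusted p = 0.00188, with 0.183% called), and the ranges overlapped through the 2 sham rats numbered under 38. A fit to those 2 groups alone gave the same difference with an adjusted p of 0.133, and it called 0 of 18625 probe sets. With L-dopa and pramipexole, where all 14 rats lie in the range 1 to 37, lesioned and sham rats averaged 7.09 and 7.02. That difference was 0.07 ± 0.12 and was not called (adjusted p = 0.944, with 0 of 18625 tested probe sets called).

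L-dopa rats were also higher on this probe set. Over all rats Prkcb 1397189_at averaged 6.95 in L-dopa rats and 6.69 in saline rats, a difference of 0.26 ± 0.06 (adjusted p = 0.0325, with 0.215% of all tested probe sets called). This call was lost when any 1 of 8 rats was left out, those numbered 16, 19, 25, 29, 36, 37, 49 and 56, with adjusted p-values over all single omissions between 0.0145 and 0.0563. It was also lost when the cerebral cortex marker score entered the fit, which left a difference of 0.23 (adjusted p = 0.0884). In this L-dopa comparison 8 of the 9 cerebral cortex markers were higher, with a median difference of 0.21 on the log2 scale and none called. The median over all tested probe sets was 0.002. The Prkcb call was lost as well with no filter and with quantile normalization. Whether the amount of cortical tissue bears on the Prkcb difference was not tested.

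Among sham rats conditioned with pramipexole, L-dopa rats averaged 7.02 and saline rats 6.28, a difference of 0.74 ± 0.12 (adjusted p = 8.03e-05, with 0.166% called) and no overlap. These L-dopa rats are numbered 29 to 35 and the saline rats 43 to 49. Among lesioned rats, which are all numbered under 38, L-dopa and saline rats differed by 0.03 ± 0.12 with pramipexole and by 0.07 ± 0.12 with saline conditioning. Lesion and L-dopa had an interaction of −0.42 ± 0.12 that was not called (adjusted p = 0.278). Pramipexole against saline conditioning over all rats gave 0.09 ± 0.06 (adjusted p = 0.97), and 0.0376% of all tested probe sets were called in that comparison.

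The 7 sham L-dopa saline rats lie on both sides of the division. Prkcb 1397189_at is among the 15 probe sets without overlap across it, so its gaps here and over all rats restate how the division was found. Rats 36 and 37 had log2 signals of 7.08 and 6.96 on Prkcb 1397189_at. Rats 38 to 42 had 6.50, 6.22, 6.18, 6.36 and 6.29. The 2 rats lay above all 5 others, and the means differed by 0.71.

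Over all rats, the 37 rats numbered 1 to 37 averaged 7.08 ± 0.17 and the 19 rats numbered 38 to 56 averaged 6.30 ± 0.20 (SD), a 1.72-fold higher signal in the rats of lower number. The lowest of the 37 was 0.05 above the highest of the 19. On each of the other 8 PKC probe sets the ranges overlapped, at least 15 of the 19 rats lay above the lowest of the 37, and the means differed by between −0.11 and 0.11.

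With the number range as a block in the fit, the difference between lesioned and sham rats on Prkcb 1397189_at was 0.09 ± 0.12 (adjusted p = 0.998). Within rats 1 to 37 it was 0.11 ± 0.08 (adjusted p = 0.931, with 0 of 18625 probe sets called). All sham rats in that range received L-dopa, so every lesion value within rats 1 to 37 compares L-dopa rats only. The block rests on the 2 and 5 rats of the sham L-dopa saline group. The division was found from the values, and Prkcb 1397189_at has no overlap across it. A block there was therefore bound to take up most of its difference, so its smaller values and lost calls are a description, not a test. With the block, limma called 0 of 18625 probe sets for the lesion, and 803 had an unadjusted p under 0.05. The L-dopa difference was 0.03 ± 0.07 with the block, 0.05 ± 0.06 within rats 1 to 37 and −0.01 ± 0.12 within rats 38 to 56. These cover different rats, since the value within rats 1 to 37 compares lesioned rats only and the value within rats 38 to 56 compares 5 L-dopa with 7 saline rats, all sham and conditioned with saline. The block also ended the other 4 calls of this probe set. With the block, limma called 0 of 18625 probe sets in each of those 4 comparisons and in L-dopa against saline over all rats.

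The mean 3′ minus 5′ signal of the control genes, a measure of RNA integrity, was 0.85 ± 0.09 in rats 1 to 37 and 0.97 ± 0.13 in rats 38 to 56 (SD, log2). With that measure in the fit, the lesion difference of Prkcb 1397189_at was 0.57 ± 0.07 (adjusted p = 1.79e-08). That fit called 462 of 18625 tested probe sets for the lesion, against 944 without the measure. All 28 lesioned rats are numbered under 38, so this fit cannot separate the lesion from the number range. Whether RNA integrity bears on the difference was not tested.

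**Figure D1:**
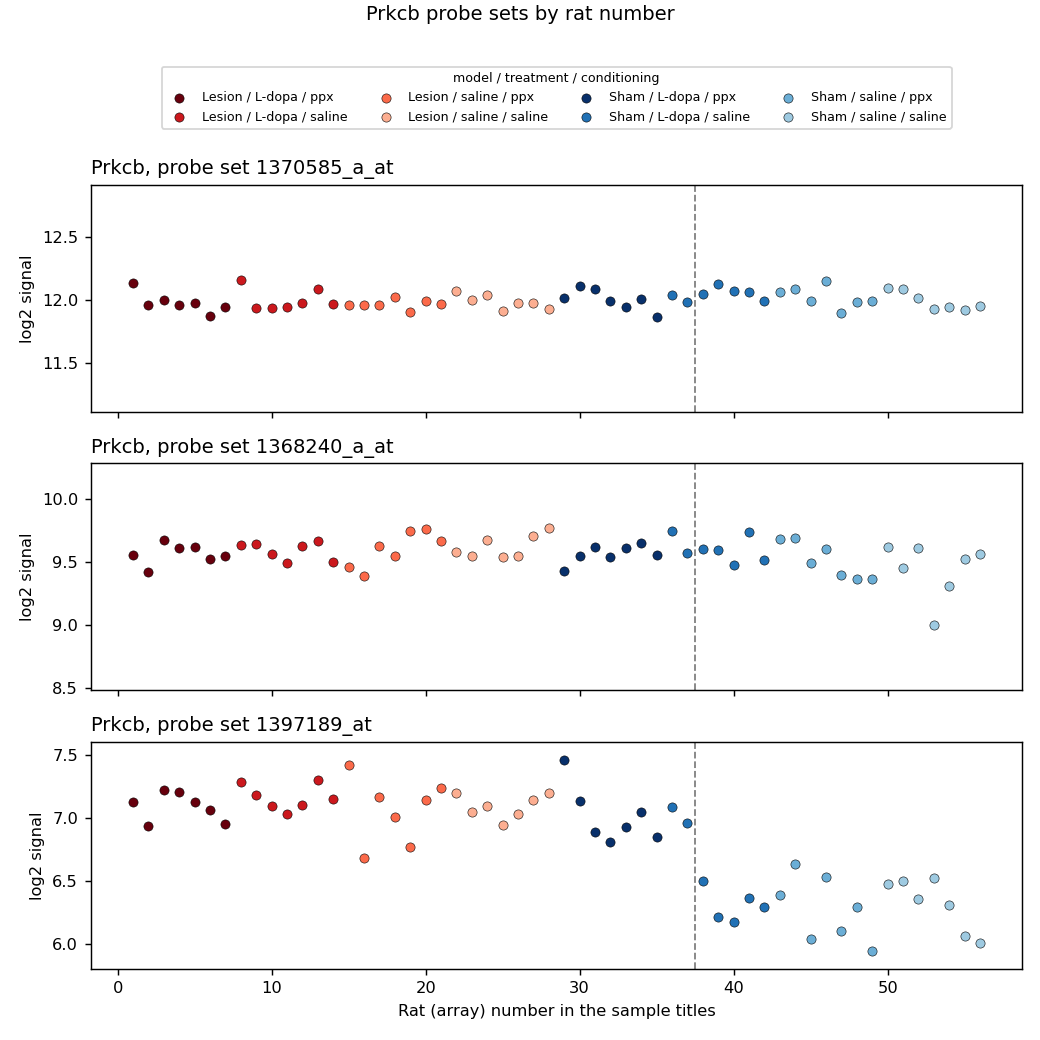
The 3 Prkcb probe sets in the 56 rats. The x axis is the rat number in the titles, the y axis is log2 signal, colours mark the 8 groups and the dashed line lies between rats 37 and 38. On 1397189_at the 19 rats right of the line all lie below the 37 rats left of it, which is not the case on the other 2 probe sets.

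Probe set 1370585_a_at of Prkcb had group means between 11.97 and 12.04, and its 56 values lay between 11.87 and 12.16. It averaged 11.98 in lesioned rats and 12.02 in sham rats. The difference of −0.03 ± 0.02 had a 95% interval from −0.07 to 0.01 (adjusted p = 0.425). It was the steadiest of the 9 probe sets, with an SD over all rats of 0.07. Its group means ± SD (n = 7 each), from the highest down, were 12.04 ± 0.05 in sham L-dopa saline, 12.02 ± 0.08 in sham saline pramipexole, 12.00 ± 0.08 in sham L-dopa pramipexole, 12.00 ± 0.09 in lesioned L-dopa saline, 11.99 ± 0.08 in sham saline saline, 11.99 ± 0.06 in lesioned saline saline, 11.98 ± 0.08 in lesioned L-dopa pramipexole and 11.97 ± 0.04 in lesioned saline pramipexole rats. Neighbours in that order differed by less than the larger of their SDs.

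Probe set 1368240_a_at of Prkcb averaged 9.59 in lesioned rats and 9.53 in sham rats, a difference of 0.06 ± 0.03 with a 95% interval from −0.01 to 0.13 (adjusted p = 0.296). Its smallest p among the 19 comparisons was for lesioned against sham rats with saline treatment and saline conditioning. There the lowest, median and highest were 9.54, 9.58 and 9.76 in lesioned rats, against 8.99, 9.52 and 9.62 in sham rats, and the ranges overlapped. The difference was 0.18 ± 0.07 (adjusted p = 0.193). Without rat 53, the lowest sham rat, it was 0.11. By group (mean ± SD, n = 7), this probe set ran 9.62 ± 0.09 in lesioned saline saline, 9.60 ± 0.10 in sham L-dopa saline, 9.60 ± 0.14 in lesioned saline pramipexole, 9.59 ± 0.07 in lesioned L-dopa saline, 9.56 ± 0.08 in lesioned L-dopa pramipexole, 9.56 ± 0.07 in sham L-dopa pramipexole, 9.51 ± 0.15 in sham saline pramipexole and 9.44 ± 0.22 in sham saline saline rats. No neighbouring means differed by more than the larger of their SDs.

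The suffix _a_at marks a probe set designed on alternative transcripts of 1 gene, and 1397189_at has no such suffix. To see whether the Prkcb probe sets rose and fell together from rat to rat, signals were centred within each group and number range. Over 56 rats, 1370585_a_at and 1397189_at had r = 0.44 and rho = 0.52 (permutation p adjusted over 4 pairs = 0.00182 and 0.00028). The r was 0.45 without the 2 rats farthest from the median. Probe sets 1370585_a_at and 1368240_a_at had r = 0.31 and rho = 0.33 (adjusted permutation p = 0.0291 and 0.0242). For 1368240_a_at and 1397189_at r was 0.15 and rho 0.30 (adjusted permutation p = 0.262 and 0.0242).

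Prkca, the other conventional isoform, had values between 4.40 and 5.76 on its single probe set. Group means ± SD (n = 7 each) of Prkca were, from the highest down, 5.27 ± 0.41 in lesioned saline pramipexole, 5.23 ± 0.41 in sham saline saline, 5.14 ± 0.31 in sham saline pramipexole, 5.10 ± 0.24 in sham L-dopa saline, 5.08 ± 0.29 in lesioned L-dopa pramipexole, 5.06 ± 0.38 in lesioned L-dopa saline, 4.94 ± 0.31 in lesioned saline saline and 4.83 ± 0.30 in sham L-dopa pramipexole rats. No neighbours differed by more than the larger of their SDs, but the highest and lowest means lay further apart than the largest SD. It averaged 5.09 in lesioned rats and 5.08 in sham rats, a difference of 0.01 ± 0.09 with a 95% interval from −0.17 to 0.19. L-dopa and saline rats averaged 5.02 and 5.14, a difference of −0.13 ± 0.09 (adjusted p = 0.616). The effect of pramipexole differed between lesioned and sham rats by 0.36 ± 0.17, which was not called (adjusted p = 0.765).

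**Figure D2:**
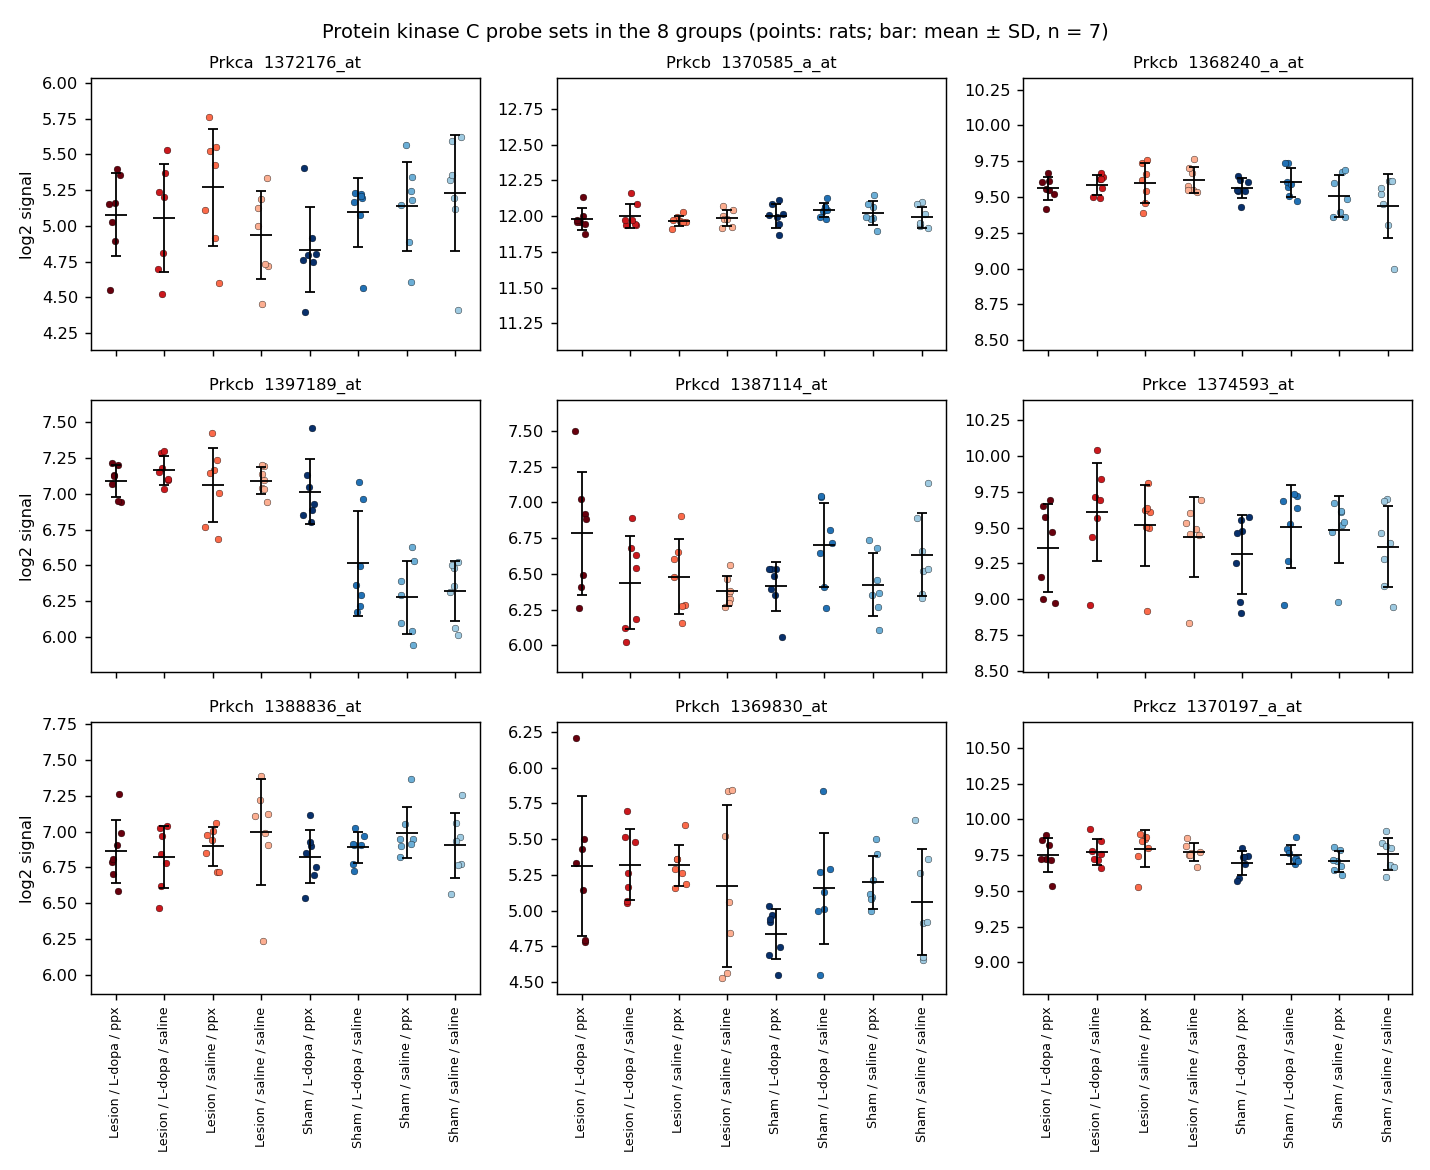
Log2 signal of the 9 PKC probe sets in the 8 groups. Each point is a rat, the bars give the mean ± SD of 7 rats, and ppx stands for pramipexole. All panels span 2 log2 units or less, and the separation of sham saline from lesioned rats appears on Prkcb 1397189_at only.

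Of the isoforms that depend on diacylglycerol alone, Prkcd had values between 6.03 and 7.50. It averaged 6.52 in lesioned rats and 6.54 in sham rats, a difference of −0.02 ± 0.07 with a 95% interval from −0.17 to 0.12. Its smallest p was for the interaction of lesion and pramipexole. In lesioned L-dopa pramipexole rats the lowest, median and highest were 6.26, 6.89 and 7.50, against 6.03, 6.54 and 6.89 in lesioned L-dopa saline rats. In sham L-dopa pramipexole rats they were 6.06, 6.49 and 6.54, against 6.26, 6.71 and 7.04 in sham L-dopa saline rats. The median was higher with pramipexole in the lesioned pair and lower with pramipexole in the sham pair, and the ranges overlapped in both pairs.

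In order of level, Prkcd averaged 6.78 ± 0.43 in lesioned L-dopa pramipexole, 6.70 ± 0.29 in sham L-dopa saline, 6.63 ± 0.29 in sham saline saline, 6.48 ± 0.26 in lesioned saline pramipexole, 6.44 ± 0.33 in lesioned L-dopa saline, 6.42 ± 0.22 in sham saline pramipexole, 6.41 ± 0.17 in sham L-dopa pramipexole and 6.38 ± 0.10 in lesioned saline saline rats (SD, n = 7 each). Lesioned L-dopa pramipexole rats stood first with the widest spread, and lesioned saline saline rats stood last with the narrowest. Neighbours again differed by less than the larger of their SDs.

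The pramipexole difference of Prkcd was 0.34 in lesioned L-dopa rats, 0.10 in lesioned saline rats, −0.29 in sham L-dopa rats and −0.21 in sham saline rats, each with an SE of 0.15. The difference between lesioned and sham rats in this effect was 0.47 ± 0.15 and was not called (adjusted p = 0.617). In that interaction limma called 0 of 18625 probe sets, and 1201 had an unadjusted p under 0.05. It was 0.50 ± 0.17 with the number range as a block (adjusted p = 0.963).

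A single lesioned L-dopa pramipexole rat, rat 2, had the highest Prkcd signal of all 56, 7.50 against 7.13 in the next rat. All 9 measured microglial markers were higher in rat 2 than in every other rat. C1qa, a complement component made by microglia, was 12.20 in rat 2 against at most 9.65 in any other rat, and the mean centred signal of the list was 2.68 against −0.30 to 0.42 in the others. Without rat 2 the interaction was 0.41 ± 0.14 (adjusted p = 0.734). Without it the pramipexole difference in lesioned L-dopa rats was 0.23 ± 0.14. In this bulk tissue, more cells of a type and more RNA per cell cannot be told apart.

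The relation of Prkcd with the microglial score rested on rat 2. Centred within group and number range over 56 rats, r was 0.39 and rho 0.13 (permutation p adjusted over 81 relations = 0.0544 and 0.607). Without rat 2, r was 0.14 and rho 0.09. The other 8 PKC probe sets ranked rat 2 between 10 and 50 of 56 from the top. By the same centred correlation, the genes most like Prkcd over the 56 rats were Tmem119 (r = 0.58), Ptpn18 (0.54) and Ccdc85c (0.53). Tmem119 is in the microglial list, so its likeness includes rat 2.

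Prkce had values between 8.83 and 10.04. Ordered by level, it averaged 9.61 ± 0.35 in lesioned L-dopa saline, 9.52 ± 0.28 in lesioned saline pramipexole, 9.51 ± 0.29 in sham L-dopa saline, 9.49 ± 0.23 in sham saline pramipexole, 9.44 ± 0.28 in lesioned saline saline, 9.37 ± 0.28 in sham saline saline, 9.36 ± 0.31 in lesioned L-dopa pramipexole and 9.31 ± 0.28 in sham L-dopa pramipexole rats (SD, n = 7 each). Both L-dopa pramipexole groups stood last, and neighbours differed by less than the larger of their SDs. It averaged 9.48 in lesioned rats and 9.42 in sham rats, a difference of 0.06 ± 0.08 with a 95% interval from −0.09 to 0.21. The smallest p was for the interaction of L-dopa and pramipexole, −0.32 ± 0.15 (adjusted p = 0.586), and with the number range as a block it was −0.22 ± 0.17. The genes most like Prkce from rat to rat were Cdc37 (r = 0.86), Efr3b (0.85) and Myh1 (0.80), the highest correlations of any of the 6 genes.

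Prkch has 2 probe sets. The first, 1388836_at, averaged 7.00 ± 0.37 in lesioned saline saline, 6.99 ± 0.18 in sham saline pramipexole, 6.90 ± 0.23 in sham saline saline, 6.90 ± 0.14 in lesioned saline pramipexole, 6.89 ± 0.11 in sham L-dopa saline, 6.86 ± 0.22 in lesioned L-dopa pramipexole, 6.83 ± 0.19 in sham L-dopa pramipexole and 6.82 ± 0.22 in lesioned L-dopa saline rats (SD, n = 7 each). Neighbours differed by less than the larger of their SDs. On 1388836_at Prkch averaged 6.89 in lesioned rats and 6.90 in sham rats, a difference of −0.01 ± 0.06 with a 95% interval from −0.12 to 0.11. L-dopa and saline rats averaged 6.85 and 6.95, a difference of −0.10 ± 0.06 (adjusted p = 0.548).

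The other Prkch probe set, 1369830_at, averaged 5.28 in lesioned rats and 5.06 in sham rats, a difference of 0.22 ± 0.09 (adjusted p = 0.16). Its largest difference was between lesioned and sham rats with L-dopa and pramipexole, all numbered under 38. There the lowest, median and highest were 4.78, 5.34 and 6.21 in lesioned rats, against 4.55, 4.92 and 5.03 in sham rats. The ranges overlapped at the bottom, and the upper lesioned rats lay above all sham rats. The difference was 0.48 ± 0.18 (adjusted p = 0.654). Without rat 3 it was 0.33. By level, 1369830_at averaged 5.32 ± 0.25 in lesioned L-dopa saline, 5.32 ± 0.15 in lesioned saline pramipexole, 5.31 ± 0.49 in lesioned L-dopa pramipexole, 5.20 ± 0.19 in sham saline pramipexole, 5.17 ± 0.57 in lesioned saline saline, 5.16 ± 0.39 in sham L-dopa saline, 5.06 ± 0.37 in sham saline saline and 4.84 ± 0.18 in sham L-dopa pramipexole rats (SD, n = 7 each). Neighbouring groups differed by less than the larger of their SDs. Over all rats the lesion difference of this probe set was −0.09 ± 0.21 with the number range as a block and 0.16 ± 0.17 within rats 1 to 37.

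The 2 Prkch probe sets moved together from rat to rat, with r = 0.43 and rho = 0.31 over 56 rats (permutation p adjusted over 4 pairs = 0.00182 and 0.0242), and r = 0.34 without the 2 farthest rats.

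Prkcz, the atypical isoform, had values between 9.53 and 9.93. Its groups averaged 9.80 ± 0.13 in lesioned saline pramipexole, 9.77 ± 0.09 in lesioned L-dopa saline, 9.77 ± 0.06 in lesioned saline saline, 9.76 ± 0.11 in sham saline saline, 9.76 ± 0.06 in sham L-dopa saline, 9.75 ± 0.12 in lesioned L-dopa pramipexole, 9.71 ± 0.07 in sham saline pramipexole and 9.70 ± 0.09 in sham L-dopa pramipexole rats (SD, n = 7 each), a span smaller than the largest of these SDs. It averaged 9.77 in lesioned rats and 9.73 in sham rats, a difference of 0.04 ± 0.03 with a 95% interval from −0.01 to 0.10 (adjusted p = 0.376). L-dopa and saline rats differed by −0.01 ± 0.03, and pramipexole and saline conditioned rats by −0.03 ± 0.03.

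Across the 8 PKC probe sets other than Prkcb 1397189_at, the lesion differences lay between −0.03 and 0.22, with adjusted p-values from 0.16 to 0.963 and 95% bounds from −0.17 to 0.40. The L-dopa differences lay between −0.13 and 0.11, with bounds from −0.30 to 0.25. The pramipexole differences lay between −0.06 and 0.00, with bounds from −0.21 to 0.18. The bound farthest from 0 is a fold of 1.32 for the lesion, 1.23 for L-dopa and 1.16 for pramipexole. With the number range as a block the intervals were wider, with lesion differences between −0.09 and 0.26 and bounds from −0.52 to 0.61, L-dopa bounds from −0.44 to 0.30 and pramipexole bounds from −0.30 to 0.19. The median lesion difference of the 9 PKC probe sets was 0.04, against −0.01 over all tested probe sets.

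**Figure D3:**
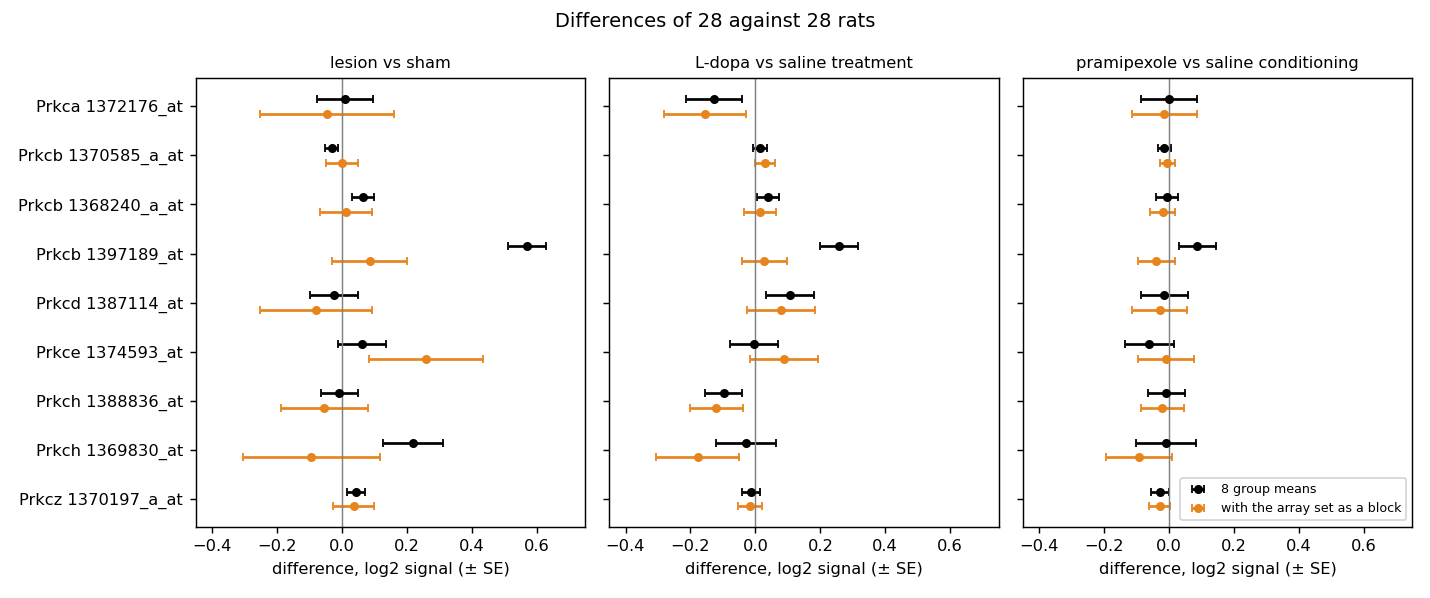
Differences in log2 signal for the 9 PKC probe sets in the 3 comparisons of 28 against 28 rats, as points with bars of ± SE. Black is the fit to 8 group means and orange the fit with the number range, written as array set, as a block. The black point of Prkcb 1397189_at lies apart at 0.57 for the lesion and 0.26 for L-dopa, and its orange points lie at 0.09 and 0.03.

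Some PKC probe sets also varied from rat to rat with marker genes of particular cells or tissues, after each signal and score was centred within group and number range. A score is the mean centred signal of a marker list, and 81 relations of 9 probe sets with 9 measures were computed over 56 rats. The permutations shuffled all rats freely after the centring and made no allowance for it, so their p-values can be somewhat too small. Prkch 1388836_at followed the score of the 12 spiny neuron markers, among them Drd1, Drd2, Penk, Adora2a, Ppp1r1b and Pde10a. Its r was 0.72 and its rho 0.60 (permutation p adjusted over the 81 relations = 0.000405 for both, from unadjusted values of 1e-05, the smallest that 100000 permutations give). The r was 0.59 without the 2 rats farthest from the median score, 0.75 within rats 1 to 37 and 0.60 within rats 38 to 56.

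With the score of cerebral cortex markers Prkch 1388836_at had r = −0.62 and rho = −0.56 (adjusted permutation p = 0.000405 for both). The r was −0.59 without the 2 farthest rats, −0.64 within rats 1 to 37 and −0.57 within rats 38 to 56. The second Prkch probe set, 1369830_at, had r = 0.41 and rho = 0.33 with the spiny neuron score (adjusted permutation p = 0.0401 and 0.123).

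Prkcz had r = 0.45 and rho = 0.43 with the spiny neuron score (adjusted permutation p = 0.0175 and 0.0209), and its r was 0.45 in rats 1 to 37 and in rats 38 to 56. The genes most like Prkch 1388836_at were Pbx3 (r = 0.75), Gnal (0.75) and Patj (0.74), and those most like Prkcz were Foxp1 (0.65), Pde2a (0.61) and Hectd3 (0.60). Whether the proportion of striatal and cortical tissue in the dissected samples accounts for these correlations was not tested.

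No relation of the other PKC probe sets with a score passed by both r and rho. By rho alone, Prkcb 1368240_a_at passed with the astrocyte score (rho = −0.44, adjusted permutation p = 0.0186, with r = −0.35 and 0.0676). Prkce passed with the choroid plexus score (rho = −0.43, adjusted permutation p = 0.0186, with r = −0.37 and 0.0599). Prkcb 1397189_at passed narrowly with the same score (rho = −0.39, adjusted permutation p = 0.0431, with r = −0.27 and 0.194). As the permutations made no allowance for the centring, a pass this narrow is uncertain.

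The genes most like Prkcb 1370585_a_at were Gpm6b (r = 0.75), Ccni (0.70) and Ubl7 (0.67). Those most like Prkcb 1397189_at were Vegfc (0.62), Thrb (0.61) and Pwwp3a (0.53), so the 2 Prkcb probe sets had different genes in first place. Those most like Prkca were Aplp1 (0.52), Tm9sf3 (0.51) and Scly (0.48). These correlations, over 56 rats after centring, describe likeness only.

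**Figure D4:**
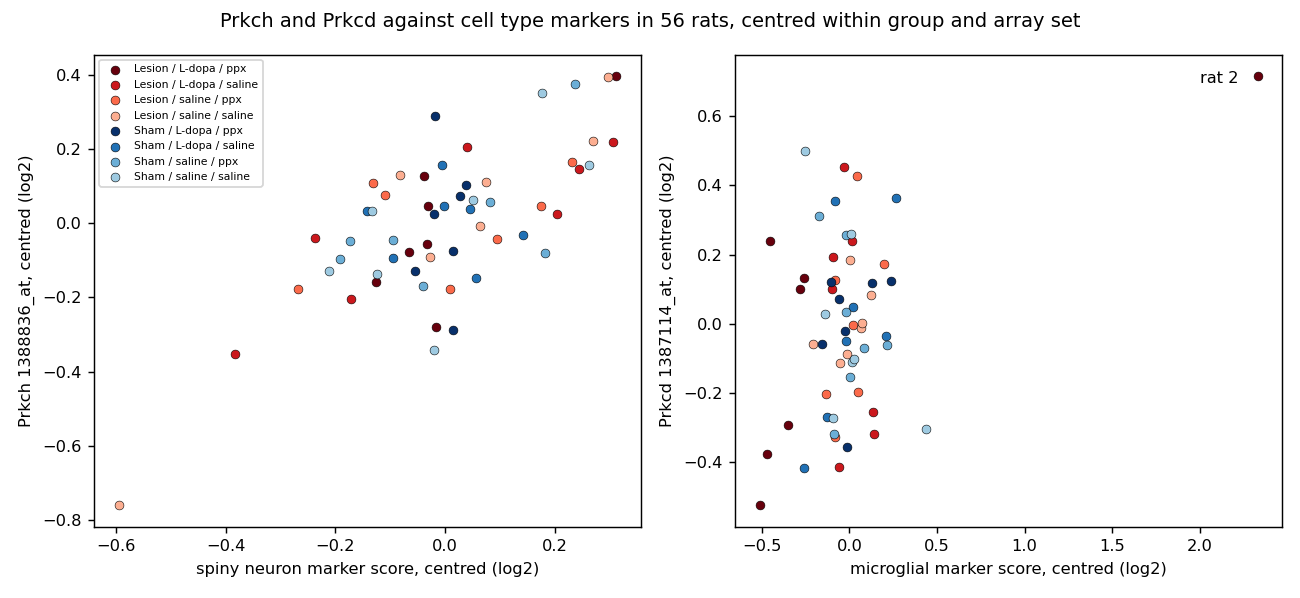
Each point is a rat, coloured by group, and all values are centred within group and number range (written as array set) on the log2 scale. Left, Prkch 1388836_at (y) against the spiny neuron marker score (x), with r = 0.72. Right, Prkcd (y) against the microglial marker score (x), where rat 2 stands alone at the far right and r is 0.39 with it and 0.14 without it.

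The genes around PKC were read from 6 lists, each gene by its tested probe set of highest mean. Of the other kinases of the family and their relatives 5 of 9 were tested and none was called in the lesion, L-dopa or pramipexole comparison over all rats. Those comparisons called 5.07%, 0.215% and 0.0376% of all tested probe sets, so lists of this size would give few calls or none. Prkci (the atypical isoform iota) averaged 9.58 in lesioned rats and 9.47 in sham rats, a difference of 0.12 ± 0.04 that did not pass (adjusted p = 0.066). Upstream, 12 of 17 genes for Gq proteins and phospholipase C were tested and none was called, with a median lesion difference of −0.06 against −0.01 over all tested probe sets. Plcb1, a phospholipase C of the beta class, averaged 10.55 in lesioned rats and 10.52 in sham rats (adjusted p = 0.555).

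Among the diacylglycerol kinases and lipases, 10 of 12 were tested and 1 was called, Dgki (diacylglycerol kinase iota), with a lower signal in lesioned than in sham rats. Over all tested probe sets 5.07% were called in this comparison and 2.85% were called lower, so 1 of 10 is near the background. Dgki averaged 5.77 in lesioned rats and 6.09 in sham rats, a difference of −0.32 ± 0.07 (adjusted p = 0.00203). With the number range as a block it was −0.02 ± 0.15 (adjusted p = 0.998), and within rats 1 to 37 it was −0.19 ± 0.13 (adjusted p = 0.914). Dgki was not called for L-dopa (0.04 ± 0.07) or pramipexole (−0.11 ± 0.07).

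Downstream, 15 of 18 PKC substrates were tested and none was called. With 5.07% of all tested probe sets called for the lesion, 0.215% for L-dopa and 0.0376% for pramipexole, no call among 15 is near the background. Gap43, the growth cone protein that PKC phosphorylates, averaged 11.26 in lesioned rats and 11.24 in sham rats (adjusted p = 0.801). Marcks, an actin-binding substrate at the plasma membrane, averaged 10.68 in lesioned rats and 10.61 in sham rats (adjusted p = 0.249). Of the 21 symbols listed for anchors, activators and phosphatases of PKC, 15 were tested, and of the other diacylglycerol receptors 6 of 9. The 21 symbols include older and newer names of the same genes (Gnb2l1 and Rack1, Prkcdbp and Cavin3, Sdpr and Cavin2), so they stand for fewer genes. No tested gene of either list was called, which is also near that background. Rasgrp1, a diacylglycerol-activated exchange factor for Ras, averaged 8.28 in lesioned rats and 8.16 in sham rats (adjusted p = 0.249).

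In the marker lists, Penk was called higher in lesioned rats, by 0.11 ± 0.04 (adjusted p = 0.049), and Acta2, a smooth muscle actin of mural cells, averaged 5.68 in lesioned rats and 5.91 in sham rats (adjusted p = 0.00123), in a comparison that called 5.07% of all tested probe sets. With the number range as a block Penk differed by 0.15 ± 0.08 and Acta2 by −0.14 ± 0.11 (adjusted p = 0.998 for both). None of the other tested markers of spiny neurons, cerebral cortex, thalamus and septum, choroid plexus, astrocytes, oligodendrocytes, microglia, or endothelial and mural cells was called in the 3 comparisons over all rats.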

How the data were processed

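Total RNA (100 ng) of each dorsal striatum was labelled with a 3′ in vitro transcription kit and hybridized to an Affymetrix Rat230_2 array, per the labels' protocols. Signals were made with MAS5, per the submitters' processing notes, and its version and scaling target are not given in the sources used here. The values deposited by the authors are log2 signals: unlogged, their mean after removal of 2% at each end was 150.042 to 150.046 on all arrays. They were used as deposited, without further normalization. Detection calls were not used. Means of probe sets of 1 gene were ranked only to choose which stands for the gene.

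Symbols came from the array annotation supplied with the value table, and the gene numbers of all 9 PKC probe sets carried the same symbols in a RefSeq rat gene table. The array's genome build is not given in the sources used here, so no positions are printed, and no sequences were analysed here.

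Of 31099 probe sets 57 are controls. The 18625 of the other 31042 with a mean above the 40th percentile were tested with limma 3.58.1 in R 4.3.3, on 8 group means of 56 arrays with no intercept, then eBayes, two-sided, adjusted by Benjamini-Hochberg within each of 19 comparisons. The fit was tested on simulated data. Replicates are separate rats. Groups came from the labels. Alternatives were 13 settings (filters, normalization, weights, prior, number range, groups in the fit, RNA quality, tissue markers, an added signal of 16) and leaving out each rat. Correlations used signals centred in 9 cells of group and number range, with 100000 permutations.

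The PKC genes, the 6 pathway lists and the 8 cell type lists were chosen with earlier results of these data known, among them the step of Prkcb 1397189_at. The rule for named genes was every PKC probe set, the 3 genes of highest centred correlation for the probe set of highest mean of each PKC gene and for any other called in a comparison over all rats, and list genes that were called. Prkci, Plcb1, Gap43, Marcks, Rasgrp1, C1qa and Drd1 were named as examples after their values were seen. Omitting rat 2 was chosen after seeing the data.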

Additional observations from a re-analysis of the deposited data

Results flagged for a closer look

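In 9 of 72 groups of 7 rats (9 probe sets in 8 groups) a single rat lay far from the other 6 by Dixon's criterion. Chance gives about 1 in 20 such groups. No interaction was called for a PKC probe set.

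Of these rats, 3 were low on Prkce. Rat 19 (lesioned saline pramipexole) had 8.92 where the next rat had 9.50, rat 23 (lesioned saline saline) had 8.83 where the next had 9.45, and rat 47 (sham saline pramipexole) had 8.98 where the next had 9.47.

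On Prkca, whose mean lies close to the low-signal filter, rat 41 (sham L-dopa saline) had 4.56 where the next had 5.08, and rat 53 (sham saline saline) had 4.41 where the next had 5.12. On Prkch 1388836_at, rat 22 (lesioned saline saline) was low at 6.24 where the next had 6.91, and rat 44 (sham saline pramipexole) was high at 7.37 where the next had 7.05. On Prkcd, rat 32 (sham L-dopa pramipexole) had 6.06 where the next had 6.36. On Prkcz, rat 20 (lesioned saline pramipexole) had 9.53 where the next had 9.75.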

How the results depend on the processing

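The lesion call of Prkcb 1397189_at over all rats (1 PKC probe set) became 0 with the number range as a block and within rats 1 to 37. Both settings called 0 of 18625 probe sets in that comparison. The L-dopa call over all rats (1) became 0 with no filter, with quantile normalization, with the block, within rats 1 to 37, within rats 38 to 56, where the difference was −0.012, and with the cerebral cortex markers as a covariate, and ranged from 0 to 1 over single omissions of rats. The lesion call with L-dopa and saline conditioning (1) became 0 with the block, within rats 1 to 37 and in a fit to the groups compared only. Each of these settings called 0 of 18625 probe sets there. The lesion calls with saline treatment and either conditioning, and the L-dopa call in sham pramipexole rats, became 0 with the block. The block left 0 of 18625 probe sets called in each of these comparisons. Pramipexole against saline conditioning in sham L-dopa rats had 0 calls, and 1 (Prkcb 1397189_at) without rat 36 or without rat 37, the 2 rats of its saline arm numbered under 38. In the other planned settings the counts of called PKC probe sets did not move. The filter at the 60th percentile, a mean log2 signal of 6.4, left out Prkca (5.08) and Prkch 1369830_at (5.17), which were not tested there. No rat's omission ended the lesion call over all rats.

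No paired analysis was possible because the rat numbers 1 to 56 are not shared between groups. The block rests on 7 rats of 1 group, and within rats 38 to 56 no lesioned rat is present, so no lesion value exists there. Prkca and Prkch 1369830_at, whose means lie close to the low-signal filter, had the largest SEs of the 9 PKC probe sets.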

Other observations

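Each of the 8 groups held at least 1 rat with a low Prkce signal. At a threshold of 9.2, chosen after seeing the values, 12 of 56 rats lay below, between 8.83 and 9.15, and 44 above, between 9.25 and 10.04. The 12 were 3 lesioned L-dopa pramipexole, 1 lesioned L-dopa saline, 1 lesioned saline pramipexole, 1 lesioned saline saline, 2 sham L-dopa pramipexole, 1 sham L-dopa saline, 1 sham saline pramipexole and 2 sham saline saline rats. Over the 56 rats, centred within group and number range, the signals that ran most against Prkce were those of Rybp (r = −0.87) and Fyttd1 (r = −0.79), which were singled out after their values were seen.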
